A study of Mus musculus with 4 samples.

Results

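Expression of 10 Hippo pathway genes was read in sorted basal cells of mouse tail epidermis. The genes encode the coactivators Yap1 and Wwtr1 (TAZ), their DNA-binding partner Tead1, the kinases Lats1 and Lats2, the adaptor Sav1, the angiomotins Amotl1 and Amotl2, the LIM protein Ajuba and the receptor tyrosine kinase Axl. They were taken by name, as every probe set whose platform annotation gives the symbol of a member and no other gene. This gave 24 probe sets for 10 of the 18193 genes named on the array. A probe set is a group of short probes read together as a single value. For 17 of the 24 the mean over the arrays reached the filter on dim probe sets, a log2 value of 5.42, and all 10 genes kept at least 1 of them. The 7 others lay between 3.24 and 5.32 on every array and were not tested.

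There were 4 arrays of CD-1 mice, 2 per line. K14CREER/RosaYFP mice carry a tamoxifen-inducible Cre recombinase driven by the keratin 14 promoter, which is active in basal keratinocytes, and InvCREER/RosaYFP mice carry it under the involucrin promoter, which is best known from differentiating keratinocytes. Both lines carry a Rosa-YFP reporter that the Cre switches on, and both were given tamoxifen by intraperitoneal injection, 1 ug in K14CREER and 10 ug in InvCREER, so the lines differ in dose as well as in Cre, and the effects of the 2 cannot be told apart. The titles give 3.5 days and the treatment protocol 4 days between injection and collection, and the labels used here give no age. In both lines the sorted cells were living, YFP-positive, high in surface alpha6 integrin and negative for CD34. Nothing in the labels ties an array to a mouse or a pool of mice, so the p-values reflect the spread among these arrays, part of which may be technical.

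The Hippo pathway is a kinase cascade that holds back growth when cells are crowded or firmly attached to each other. The kinases of the LATS family, with the adaptor SAV1 acting on the kinase step above them, phosphorylate YAP and TAZ, which then stay in the cytoplasm or are degraded. Unphosphorylated YAP and TAZ enter the nucleus and bind TEAD factors on DNA, and in the epidermis they are known for promoting proliferation of basal keratinocytes. Much of this regulation acts on proteins, which an RNA measurement does not show.

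No member passed the test between the lines. InvCREER cells had lower means for 8 of the 10 genes, among them Wwtr1, Tead1, Ajuba and Axl, against lower means in 51.8% of all tested genes. They had higher means for Amotl2 and, by 0.06, Lats1. By limma with Benjamini-Hochberg adjustment over all 22519 tested probe sets, 0 of the 10 genes were called at an adjusted p under 0.05, against 1.33% of all 11270 tested genes. Adjusted p for the members ran from 0.129 for Ajuba to 0.956 for Lats1. At an unadjusted p under 0.05 there were 5 of 10, against 16.1% of all tested genes. The arrays of the lines did not overlap for 8 of 10, 7 lower and 1 higher in InvCREER, against 45.3% of all tested genes (24.1% lower and 21.3% higher). A difference of at least 1.5-fold was seen in 5 of 10, against 16.2% of all tested genes. The median difference of the members was -0.50 in log2 units, and that of all tested genes -0.01. The members and the lists below were chosen with earlier results of these data known. Shares set beside those of all tested genes therefore describe the chosen genes and do not test the pathway. With 2 arrays per line, 0.333 is the lowest 2-sided p that an exact permutation can reach.

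**Figure D1:**
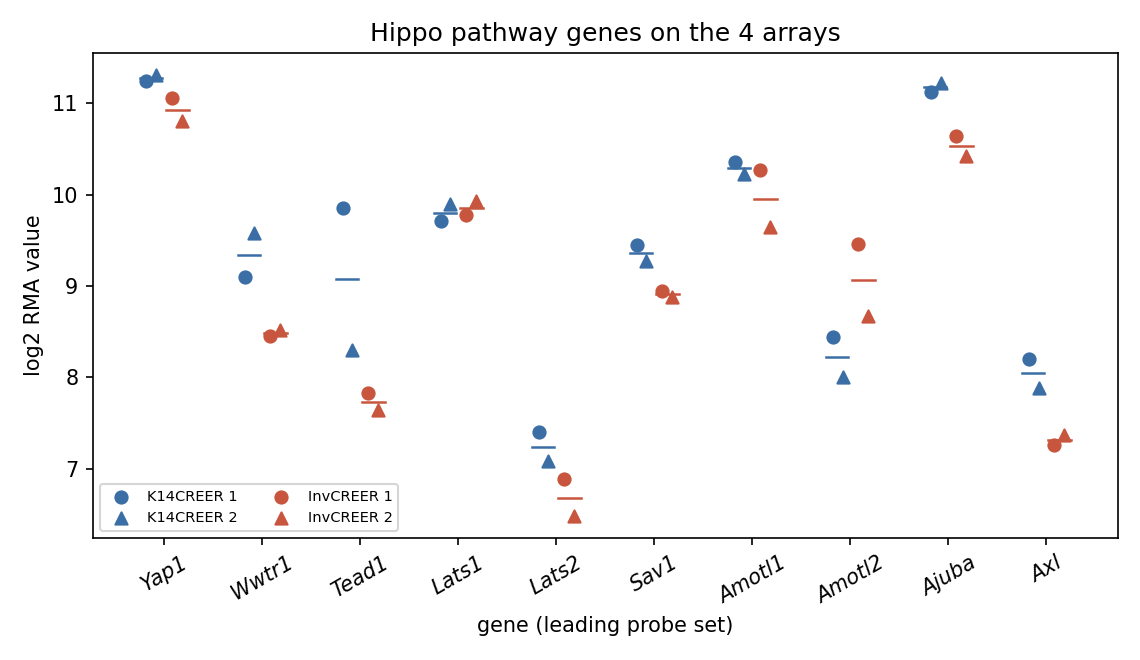
The log2 RMA value of each member's leading probe set (the tested probe set with the highest mean) is plotted for the 4 arrays, with short lines at the mean of each line of mice. Amotl2 is the member whose InvCREER arrays both lie above its K14CREER arrays, 7 members lie the other way, and Lats1 and Amotl1 overlap. Levels of different genes come from different probes and are not comparable.

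Other features of the arrays bear on every value below. The 4 arrays had medians of 5.41 to 5.44, and their pairs correlated at 0.928 to 0.969 across tested probe sets. InvCREER 1 stood apart in Xist (12.56, against 5.44 to 8.26 on the other arrays). It was low in the Y-linked Uty (4.70, against 7.19 to 7.85), Kdm5d (5.04, against 7.01 to 8.09) and Eif2s3y (7.49, against 9.89 to 10.25). The part of a difference in the sex of the mice in the members' values was not tested. The Actb probe sets of InvCREER 1 at the 3' end exceeded those at the 5' end by most, a sign of RNA quality (1.24 in log2 units, against 0.68 to 0.94). Markers of basal keratinocytes had lower means in InvCREER for 9 of 9 tested genes (2 called, Krt15 and Lamb3), at list means of 12.23 to 12.34 in K14CREER and 11.28 to 11.40 in InvCREER. Suprabasal markers had higher means for 9 of 9 (6 called), at 8.50 to 8.64 and 9.68 to 9.98 over all 11 named. Krt14, whose promoter drives the K14CREER line, and Itga6, the integrin of the gate, were at 11.62 or more on every array. Both were lower in InvCREER without overlap, at -0.33 for Krt14 and -0.70 for Itga6, and neither was called. Cd34 and Ivl had means below the filter, but Cd34, the surface marker the gate selected against, read 6.07 on K14CREER 1 against 3.59 to 3.88 on the others, and Ivl 6.23 on K14CREER 2 against 4.58 to 5.06. Cell cycle genes had lower means for 9 of 9 tested (0 called), at 9.90 to 10.35 in K14CREER and 8.86 to 9.15 in InvCREER. Sebaceous gland markers had higher means for 8 of 8 (Dgat2 called), at 8.21 to 8.68 in K14CREER, 11.48 on InvCREER 1 and 9.96 on InvCREER 2. Dermal fibroblast markers had lower means for 5 of 6 tested (Sparc called), with a median difference of -1.07 over those 6. Over all 11, 5 of them below the filter, the median was -0.33. The list means over all 11 were 6.31 to 7.03 in K14CREER and 5.81 to 5.97 in InvCREER. Sparc was at 12.19 and 12.11 in K14CREER and at 9.73 and 9.85 in InvCREER. The fibroblast markers with means below the filter were Col1a1, Col3a1, Lum, Pdgfra and Mfap5. Which cells gave the Sparc values was not tested. Langerhans cell and myeloid markers had higher means for 6 of 6 tested (0 called), at 5.02 to 5.31 in K14CREER, 7.12 on InvCREER 1 and 5.83 on InvCREER 2 over all 10. In the hair follicle list 2 of 4 tested genes had lower means, with Lgr6 called. In bulk cells a smaller share of cells of a type and less RNA per cell cannot be told apart, and the part of these shifts in the members' differences was not tested.

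Wwtr1 had lower means on each of its tested probe sets and Yap1 on 1 of 2, with none called. Yap1, the founding coactivator of the pathway, was at 11.24 and 11.31 in K14CREER and at 11.06 and 10.81 in InvCREER. Both InvCREER arrays lay below both K14CREER arrays, with a difference of -0.34 (SE 0.15; 95% interval -0.71 to 0.02; adjusted p = 0.395 by limma), and without InvCREER 2 it was -0.22. The other Yap1 probe set, which matches alternative transcripts of the gene, read 7.43 and 7.59 against 7.32 and 7.70 and overlapped, at 0.00 (95% interval -0.60 to 0.60). Wwtr1, which encodes TAZ, was at 9.10 and 9.59 in K14CREER and at 8.45 and 8.52 in InvCREER. The InvCREER arrays lay close together and 0.58 or more below K14CREER. The difference was -0.86 (SE 0.24; 95% interval -1.44 to -0.28), a 1.81-fold lower level in InvCREER, with an adjusted p of 0.172 by limma. Both other Wwtr1 probe sets pointed the same way without overlap, at -0.48 and -0.39, so that all 3 tested Wwtr1 probe sets had a lower mean in InvCREER.

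Tead1, the DNA-binding partner, had the largest difference of the members with all 4 arrays and the largest standard error. It was at 9.85 and 8.30 in K14CREER and at 7.83 and 7.64 in InvCREER. K14CREER 1 stood 1.55 above K14CREER 2, while the InvCREER arrays were 0.19 apart. The difference was -1.35 (SE 0.48; 95% interval -2.52 to -0.17; adjusted p = 0.286 by limma). Without K14CREER 1 it was -0.57, smaller in size than those of Wwtr1 (-1.10), Amotl2 (1.06) and Ajuba (-0.69). Without K14CREER 2 it was -2.12. On K14CREER 1 Krt8 and Krt18, keratins of simple epithelia and Merkel cells, read 7.44 and 7.69, against 4.20 to 5.34 on the other arrays. The fibroblast marker Thy1 read 9.18 on K14CREER 1 against 6.64 to 7.80. The Merkel transcription factor gene Atoh1 stayed under 4.70 on every array and the keratin gene Krt20 under 4.49. The 11 fibroblast markers had a mean of 7.03 on K14CREER 1 and 5.81 to 6.31 on the others, with Col1a1 and Pdgfra below the filter. Within that list Sparc read 12.19 on K14CREER 1 and 12.11 on K14CREER 2, and the dim Mfap5 4.89 and 4.97. The part of other cell types in the Tead1 values was not tested. The second Tead1 probe set was dim, at 3.92 to 4.50.

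Lats2 and Sav1 had lower means in InvCREER while Lats1, the other kinase that phosphorylates YAP, overlapped. Lats1 was at 9.71 and 9.90 in K14CREER and at 9.78 and 9.94 in InvCREER. The lines overlapped, and the 95% interval of the difference, -0.39 to 0.50, leaves room for changes of up to 1.41-fold upward. The sign of the difference, 0.06, turned without K14CREER 1 (-0.038) and without InvCREER 2 (-0.022). The second Lats1 probe set was dim, at 4.05 to 4.72. Lats2, which is both a kinase of YAP and a gene induced by it, was at 7.40 and 7.08 in K14CREER and at 6.89 and 6.48 in InvCREER. Its InvCREER arrays lay below both K14CREER arrays, with a difference of -0.56 (SE 0.26; 95% interval -1.20 to 0.08; adjusted p = 0.439 by limma), and without InvCREER 2 it was -0.35. This probe set can match several transcripts, and the 2 other tested Lats2 probe sets, which are unique, were at -0.63 and -0.27 without overlap. The 3 dim Lats2 probe sets, at 3.64 to 4.87, had differences of -0.09 to 0.09. Sav1, the adaptor of the upstream kinases, was at 9.45 and 9.27 in K14CREER and at 8.94 and 8.88 in InvCREER. The lines were 0.33 apart at their nearest, with a difference of -0.45 (SE 0.20; 95% interval -0.92 to 0.03; adjusted p = 0.397 by limma), whereas the other Sav1 probe set was at -0.18 and overlapped.

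The means of the angiomotins, which tether YAP at junctions and in the cytoplasm, pointed in opposite directions. Amotl2 was at 8.45 and 8.00 in K14CREER and at 9.46 and 8.68 in InvCREER. Both InvCREER arrays were higher, and the InvCREER arrays were themselves 0.78 apart. The difference was 0.84 (SE 0.32; 95% interval 0.06 to 1.62), a 1.79-fold higher level, with an adjusted p of 0.320 by limma, and without InvCREER 1 it was 0.45. Amotl1 was at 10.36 and 10.23 in K14CREER and at 10.27 and 9.64 in InvCREER. InvCREER 2 alone was low, and InvCREER 1 lay between the K14CREER arrays. The difference was -0.34 (95% interval -0.92 to 0.25), -0.022 without InvCREER 2 and -0.65 without InvCREER 1. The second tested Amotl1 probe set was at -0.31. Its dim probe set lay at 5.25 to 5.32. Whether the angiomotins differ from each other between the lines was not tested.

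Ajuba and Axl were lower on both InvCREER arrays, without being called. Ajuba, a LIM protein that restrains the LATS kinases, was at 11.13 and 11.22 in K14CREER and at 10.65 and 10.42 in InvCREER. The lines were 0.48 apart at their nearest, with a difference of -0.64 (SE 0.16; 95% interval -1.02 to -0.26), a 1.56-fold lower level in InvCREER. Its adjusted p of 0.129 by limma was the lowest of the members. Axl, a receptor tyrosine kinase whose gene is a known YAP target, was at 8.20 and 7.89 in K14CREER and at 7.26 and 7.37 in InvCREER. All InvCREER values lay 0.51 or more below K14CREER, with a difference of -0.73 (SE 0.24; 95% interval -1.30 to -0.16; adjusted p = 0.239 by limma). A second Axl probe set was dim, at 3.24 to 3.46. Fibroblasts and Langerhans cells are known to express Axl too. Of the 6 tested fibroblast markers Sparc was at -2.36 (called) and Dcn and Thy1 at -1.87 and -1.81 (not called). The others, Col1a2, Vim and Fbln1, were at -0.33, -0.07 and 0.00 and overlapped between the lines. The tested Langerhans cell and myeloid markers had a median difference of 2.00 (0 of 6 called). The part of either cell type in the Axl values was not tested.

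**Figure D2:**
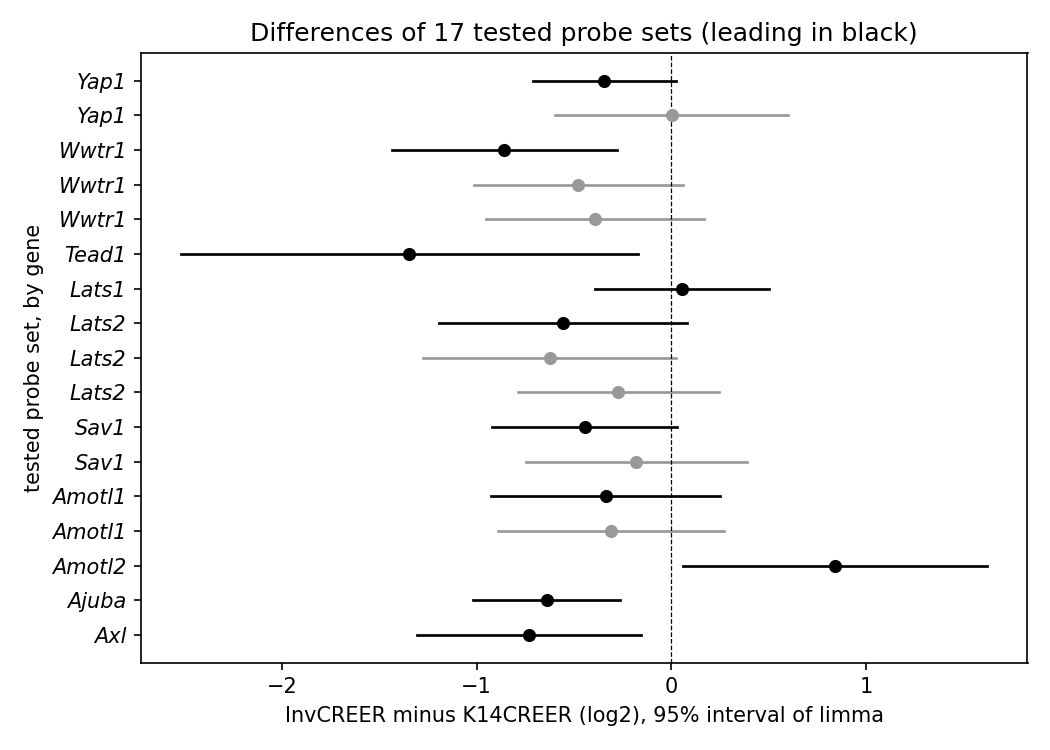
The difference InvCREER minus K14CREER in log2 units is shown with its 95% interval from limma for the 17 tested probe sets of the members, the leading probe set of each gene in black. Of the 17, 14 had a lower mean in InvCREER. The intervals of the leading probe sets of Wwtr1, Tead1, Ajuba, Axl and Amotl2 do not reach 0 before adjustment. Those of the other Wwtr1 probe sets do.

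Over the 17 tested probe sets 12 were lower and 1 was higher in InvCREER without overlap, against 42% of all tested probe sets in either direction, and 0 were called, against 0.959%. Probe sets of a gene share its transcripts and are not replicates. The 150 called genes had absolute differences of 0.71 or more, with a median of 2.00, and 30 of them were under 1.5. The members other than Tead1 differed by 0.86 or less, with standard errors of 0.15 to 0.32. With each array left out in turn 8 or 9 of the 10 genes had lower means, with medians of -0.39 to -0.66, and 0 were called.

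Several members are themselves known targets of YAP and TEAD, so the DNA around their starts was read. Promoter windows from RefSeq (GRCm38.p6), each with 250 bases before and 50 after an annotated start, were found for 9 of the members in 11 windows. The TEAD motif was searched as GGAATG on both strands, which appears as CATTCC where it lies on the other strand. It was found for 7 of the 9 genes, against 16.6% of the 27025 genes with a window. The AP-1 motif TGANTCA, which often lies near TEAD sites, was found for 0 of the 9, against 8.97%. A match is a description of letters and not a bound site. The stretches before the start of Ajuba, Axl and Wwtr1 are shown because these are the members whose lower values had the smallest p-values, on the strand of the gene and with the motif in capitals.
Ajuba chr14:54577662-54577911, minus strand: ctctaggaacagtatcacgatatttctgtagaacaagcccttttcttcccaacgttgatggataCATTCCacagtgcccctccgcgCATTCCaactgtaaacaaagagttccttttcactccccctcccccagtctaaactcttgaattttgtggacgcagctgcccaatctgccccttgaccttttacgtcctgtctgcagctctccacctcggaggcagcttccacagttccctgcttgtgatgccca
Axl chr7:25788734-25788983, minus strand: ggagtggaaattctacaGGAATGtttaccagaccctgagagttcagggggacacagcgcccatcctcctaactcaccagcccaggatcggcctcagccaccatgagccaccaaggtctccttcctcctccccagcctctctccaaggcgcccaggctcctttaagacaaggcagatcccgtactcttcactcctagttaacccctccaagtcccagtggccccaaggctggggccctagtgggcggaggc
Wwtr1 chr3:57575911-57576160, minus strand: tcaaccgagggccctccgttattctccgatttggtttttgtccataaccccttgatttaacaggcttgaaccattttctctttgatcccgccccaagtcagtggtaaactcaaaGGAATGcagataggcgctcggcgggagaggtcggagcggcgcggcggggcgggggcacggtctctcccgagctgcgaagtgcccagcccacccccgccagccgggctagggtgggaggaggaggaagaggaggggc
Ajuba held the motif at 186 and 164 bases before its start, Axl at 233 and Wwtr1 at 136. At least 2 matches, as in Ajuba, were found in 1.36% of all windows.

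The same letters stood near the starts of 4 other members, shown as 30 bases each for comparison. They include Amotl2, the member with higher values on both InvCREER arrays.
Amotl2 chr9:102717727-102717756, plus strand: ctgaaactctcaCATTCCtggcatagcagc
Yap1 chr9:8004720-8004749, minus strand: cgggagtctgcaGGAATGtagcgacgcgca
Sav1 chr12:69987091-69987120, minus strand: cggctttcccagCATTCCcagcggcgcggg
Lats2 chr14:57746102-57746131, minus strand: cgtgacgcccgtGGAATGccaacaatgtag
The matches began 65 bases before the start in Amotl2, 141 in Yap1 and 106 in Sav1, and at base 5 of the transcript in Lats2. The windows of Lats1 and Amotl1 and the second window of Lats2 held none. A match stood in 8 of the 11 member windows, against 14.7% of all windows, and the Wwtr1 windows overlap and share theirs.

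**Figure D3:**
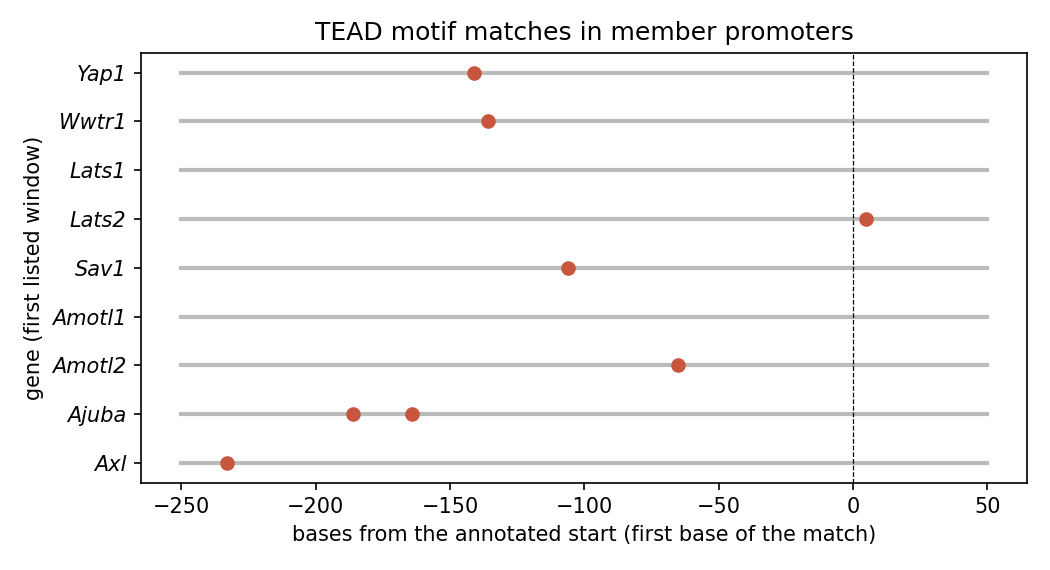
Dots mark the first base of each TEAD motif match in the first listed promoter window of the 9 members with a window, against the distance from the annotated start in bases. Matches stand in 7 of the 9, and Ajuba has 2.

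No other gene of the pathway was called. Of 84 other named pathway genes 75 were tested, and 0 were called in either direction, against 1.33% of all tested genes. Among them 40 had lower and 35 higher means, with a median difference of -0.04, and 50.7% did not overlap between the lines, against 45.3% of all tested genes. Among 11 core kinases and adaptors 7 had higher and 4 lower means, with a median of 0.04. Map4k5, of a kinase family that can act on LATS, was at -0.55, Taok2 at 0.41 and Stk4, which encodes the Hippo kinase MST1, at 0.26. Of 8 tested genes of STRIPAK, the phosphatase complex that opposes the Hippo kinases, 5 had higher means, with Mob4 at 0.33, Strn at -0.27 and Sike1 at 0.18. Among 3 tested TEAD and VGLL genes Vgll4, a TEAD corepressor, was at 0.42, Tead4 at -0.36 and Tead3 at 0.16. Tead2, Vgll1, Vgll2 and Vgll3 lay below the filter.

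Upstream regulators had lower means in 11 of 12 tested genes, with a median of -0.29 and 0 called. Wwc2 was at -0.56 and the tumour suppressor gene Rassf1 at -0.54. The exception was Wwc1, which encodes the scaffold KIBRA, at 7.82 and 8.00 in K14CREER and at 8.78 and 8.52 in InvCREER, a difference of 0.74 (SE 0.23; adjusted p = 0.212 by limma). Polarity and junction genes had higher means in 10 of 14, with a median of 0.13 and 0 called. Crb3, a polarity protein of the apical membrane, was at 0.90, the tight junction scaffold gene Tjp1 at 0.76 (adjusted p = 0.126 by limma) and the scaffold gene Dlg1 at 0.50.

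Among 11 genes of cytoplasmic retention and degradation 6 had lower and 5 higher means. Sfn, the 14-3-3 protein of stratified epithelia, was at 10.25 and 10.15 in K14CREER and at 11.00 and 11.04 in InvCREER. Both InvCREER arrays were higher, by 0.82 (SE 0.15), with an adjusted p of 0.0699 by limma. Another 14-3-3 gene, Ywhah, was at -0.71 (adjusted p = 0.121 by limma), and Btrc, a ubiquitin ligase subunit that marks YAP for degradation, at -0.53.

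Genes used as a readout of YAP and TAZ activity pointed both ways. The published target signature holds 22 genes, of which Lats2, Amotl2 and Axl are members here. Of 17 other tested genes 12 had lower and 5 higher means in InvCREER, with a median of -0.28 and 0 called. F3, which encodes tissue factor, was at 7.44 and 7.78 in K14CREER and at 8.79 and 8.93 in InvCREER, and Nuak2, a kinase, at 9.00 and 8.41 against 10.02 and 9.88. Both were higher on both InvCREER arrays, by 1.25 (SE 0.23; adjusted p = 0.0730 by limma) and 1.25 (SE 0.25; adjusted p = 0.0881 by limma). Rbms3, an RNA-binding protein, was the lowest, at 8.49 and 7.64 in K14CREER and at 7.05 and 6.57 in InvCREER, a difference of -1.26 (SE 0.35; adjusted p = 0.173 by limma), with all 4 of its tested probe sets lower. Ccn1 and Ccn2 were named after their values were seen, as the most widely used YAP targets. Ccn1 was at 8.38 and 8.85 in K14CREER and at 7.98 and 7.23 in InvCREER, a difference of -1.01 (adjusted p = 0.240 by limma), and all 4 tested Ccn1 probe sets were lower without being called. Ccn2 was at 7.98 and 6.08 in K14CREER and at 7.59 and 6.68 in InvCREER, so that the spread within a line exceeded the difference of 0.11. No p was computed for the signature as a list.

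**Figure D4:**
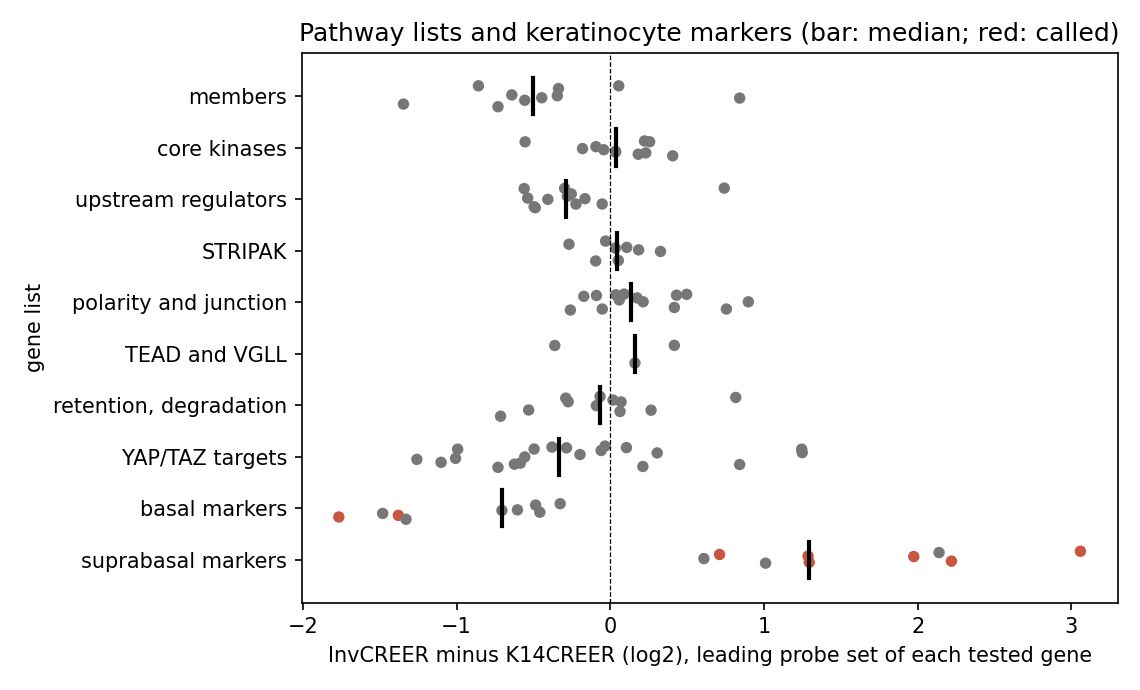
Each dot is a tested gene at its InvCREER minus K14CREER difference in log2 units, by list, with a bar at the list's median and called genes in red. The members have a median of -0.50 and the core kinases 0.04, and called genes stand in the basal and suprabasal marker lists but in none of the pathway lists.

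**Figure D5:**
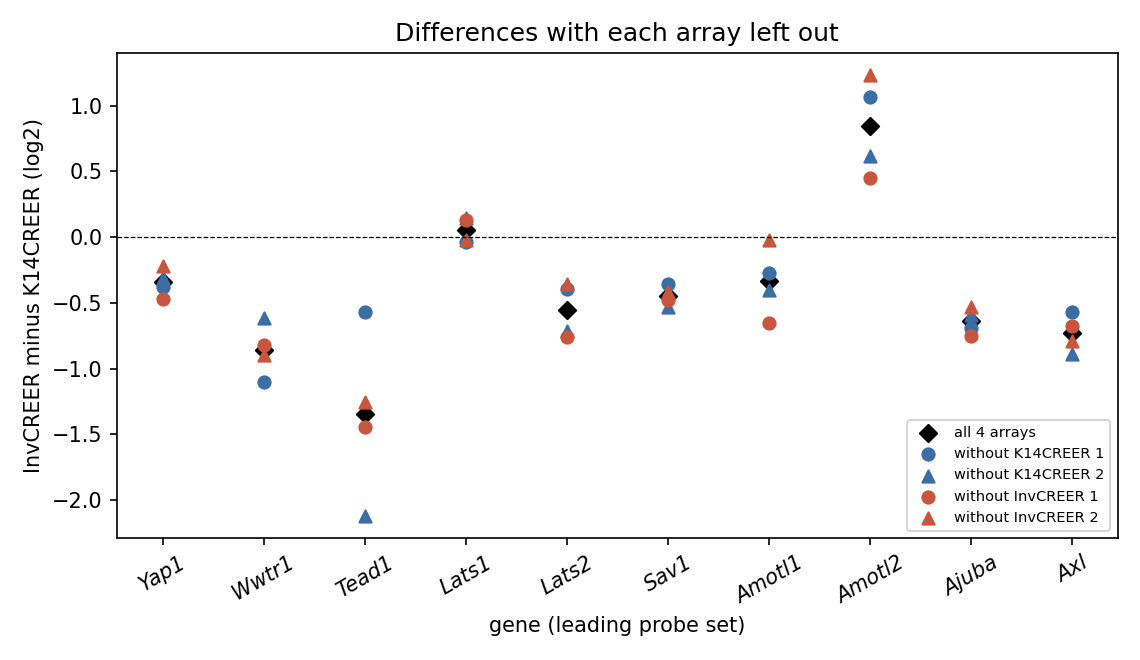
The difference of each member in log2 units is shown with all 4 arrays and with each array left out in turn. Tead1 ranges from -2.12 to -0.57 and Amotl2 from 0.45 to 1.23, while Ajuba stays between -0.75 and -0.53.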

How the data were processed

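Affymetrix mouse expression arrays measured RNA of sorted basal cells, 2 arrays per line. The authors deposited log2 values made with RMA, and per the submitters' processing notes the software was Affymetrix Expression Console 1.1. RMA equalises the distributions of the arrays, which hides any difference in total RNA per cell. Detection calls were not used here, and the number of arrays limits the precision.

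Of 45101 probe sets 64 controls were set aside, and of the other 45037 those whose mean reached their median (5.42) were tested, 22519 in all. Gene names came from the platform annotation, by Entrez number in a RefSeq table of GRCm38.p6. Of the 45037, 34945 had 1 symbol, 932 several and 9160 none listed. Each gene was read by the brightest of its tested probe sets. The lines were compared by limma 3.58.1 in R 4.3.3 (lmFit and eBayes with a mean-variance trend, 2-sided, no block), with calls at an adjusted p (Benjamini-Hochberg, all tested probe sets) under 0.05. The script was tested on simulated data.

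All members were named at every probe set, and of each pathway list the called genes and the 3 with the largest absolute difference. Of the 89 other pathway genes listed, 84 had a named probe set. The members and lists were chosen with earlier results of these data known. Alternatives covered the filter, variance trend, array weights, centring, replicate block, arrays left out, threshold, unit of testing and probe set kind. Figures were drawn with matplotlib 3.10.9.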

Additional observations from a re-analysis of the deposited data

How the results depend on the processing

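Over 15 alternatives the 10 members gave 148 values, of which 143 kept the direction and the call. Lats1 changed sign in 2, at -0.022 without InvCREER 2 and -0.038 without K14CREER 1, and ranged from -0.038 to 0.15 with an array left out. The count of called members was 0 in all alternatives but the replicate block, which gave 3 (Wwtr1, adjusted p = 0.0459; Amotl2, 0.0468; Ajuba, 0.0483, all by limma), with 8 other pathway genes and 1390 probe sets called, against 216. The array numbers are shared between the lines, but no label ties them to an animal or a day. The deviations of same-numbered arrays correlated at 0.380 across probe sets. This block leaves 1 residual degree of freedom. Called probe sets numbered 85 to 887 with an array left out, 405 at the 75th percentile filter, 122 without the variance trend and 692 at a threshold of 0.1. Gene-level testing called 450 with the mean of tested probe sets, 551 with 1 probe set per gene and 336 with the mean of every probe set, the last chosen after seeing the data. Other pathway genes called were 2 at the stricter filter (F3 and Nuak2), 3 at a threshold of 0.1 and 3 with 1 probe set per gene (F3, Nuak2 and Sfn), 4 with the mean of tested probe sets (those and Crim1) and 1 with the mean of every probe set (F3). At the stricter filter Lats2 and Axl were not tested. Where an array is left out, the array remaining in that line lends no spread of its own and takes that of the other line. The cause of these changes was not tested.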
